A study of Rattus norvegicus with 9 samples.

Results

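The 4 inhibitor of DNA binding genes, Id1 to Id4, and 6 other genes that respond to bone morphogenetic protein (BMP) or feed back on it, Smad6, Smad7, Smad9, Bambi, Atoh8 and Grem1, were followed in rat cortical cultures. They are 10 of 22050 genes in the tables, were matched by symbol, and were chosen after Id1 had been seen lower in cultures given Wnt3a plus Rspondin 1. The libraries came from primary cortical neurons of Sprague Dawley rat embryos at day 19, in 3 groups of 3. Controls were untreated. The OGD group was held without glucose and pyruvate at 1% oxygen for 4.5 h, a culture model of ischaemia called oxygen-glucose deprivation, and was then returned to regular medium in normal oxygen. The third group also went through OGD and normal oxygen and received 100 ng/ml Wnt3a, a ligand of Wnt/beta-catenin signalling, plus 50 ng/ml Rspondin 1, which strengthens the Wnt response, for 24 h. Duration and oxygen are stated for OGD alone and no source used here gives the time of harvest. A vehicle is named for OGD alone in the names of the deposited comparisons but not in the labels of that group.

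BMPs are secreted ligands that bind pairs of serine/threonine kinase receptors, which phosphorylate receptor SMAD proteins; these join SMAD4 and enter the nucleus to switch on target genes, among which the Id genes are the best known. Id proteins have a helix-loop-helix but no DNA-binding region. They pair with E proteins and so keep these from working with proneural factors of the basic helix-loop-helix class. In the developing cortex, BMP signalling and Id proteins are known for favouring astrocyte fate over neuronal fate. Id genes also answer to other signals, such as growth factors and serum.

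The Id genes share a name and a protein fold, and the stretches of DNA just before their starts show how far they share control sequence letters. They are shown for Id1, Id2 and Id3, the 3 most abundant Id genes, and for Bambi, whose stretch holds a GC-rich motif. RefSeq windows on build GRCr8 were found for 9 of the 10 genes and searched over the 250 bases before the start used there. Smad6 had no window and was not searched. The printed stretches end before the first transcribed base in RefSeq's gene table, so those of Id1 and Id3 are shorter by 39 and 38 bases. Capitals mark matches on either strand to GGCGCC, a GC-rich element bound by SMADs of the BMP branch, GTCTG, the SMAD box, TATAAA, the TATA box, CCAAT, the CCAAT box, and CTTTGAT, a site of TCF/LEF factors. No 2 of these motifs contain each other.
Id1, chr3:161671314-161671524, plus strand: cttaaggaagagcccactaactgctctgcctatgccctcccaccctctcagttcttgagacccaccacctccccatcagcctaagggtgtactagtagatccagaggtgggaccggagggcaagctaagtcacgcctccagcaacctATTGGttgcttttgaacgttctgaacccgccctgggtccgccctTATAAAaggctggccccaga
Id2, chr6:47470996-47471245, minus strand: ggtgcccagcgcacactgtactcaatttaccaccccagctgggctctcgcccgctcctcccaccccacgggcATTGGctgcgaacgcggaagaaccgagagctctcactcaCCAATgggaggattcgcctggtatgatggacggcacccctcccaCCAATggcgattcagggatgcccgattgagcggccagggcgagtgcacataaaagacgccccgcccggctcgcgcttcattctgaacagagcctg
Id3, chr5:153656041-153656252, plus strand: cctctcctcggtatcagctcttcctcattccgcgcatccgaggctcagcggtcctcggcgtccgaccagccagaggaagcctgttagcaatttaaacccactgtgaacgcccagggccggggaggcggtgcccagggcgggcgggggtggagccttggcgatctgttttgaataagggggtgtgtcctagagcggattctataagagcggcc
Bambi, chr17:58821004-58821253, minus strand: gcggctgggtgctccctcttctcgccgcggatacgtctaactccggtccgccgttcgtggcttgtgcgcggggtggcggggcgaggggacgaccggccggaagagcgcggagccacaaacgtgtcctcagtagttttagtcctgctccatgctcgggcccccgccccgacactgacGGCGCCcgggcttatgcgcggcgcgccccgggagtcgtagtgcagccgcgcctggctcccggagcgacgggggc

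The Id1 window held 1 TATA box, 59 bases before the start used by the table, and 1 CCAAT box on the opposite strand. The Id2 window held 3 CCAAT boxes and no TATAAA. None of the 5 motifs was found in the Id3 or Id4 windows. Neither SMAD motif was in any of the 4 Id windows, while GGCGCC occurred once each in the windows of Bambi, Smad9 and Grem1 and in 2 places in that of Smad7, and GTCTG once each in those of Smad9 and Atoh8. Over all 27457 RefSeq windows of that length, GGCGCC was found in 9.24%, GTCTG in 42.8%, TATAAA in 13.1%, CCAAT in 34.3% and CTTTGAT in 3.18%. These are descriptions of letters in a short window, and elements that lie farther away are not covered.

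Library totals ran from 14285914 to 25048521 counts. Control libraries stood apart from the other 6: Pearson's r of log2 CPM (counts scaled to library size) across tested genes was 0.8611 to 0.8886 between control and OGD libraries, against 0.9793 to 0.9892 between the 2 OGD groups. OGD replicate 1 stood apart on the second principal component, which held 4.63% of the variance, at 38.8 against -13.9 to 10.5. The labels do not say whether the replicates were independent cultures, and the p-values therefore reflect the scatter among these libraries, possibly only a technical one. The cultures were labelled as neurons but held other cells: the astrocyte filament gene Gfap had 907, 963 and 839 FPKM (reads scaled to gene length and library size) in controls, beside 1316, 1209 and 1090 for the neuronal tubulin gene Tubb3. Microglia markers were low in controls, with a summed level of 3.63 to 5.8 FPKM and with P2ry12 and Tmem119 at or below 0.1 FPKM. The endothelial genes Cldn5 and Cdh5 were at or below 0.06 FPKM in all 9 libraries. Ramp2, another gene of the endothelial list, had 33.8, 29.3 and 30.3 FPKM in controls.

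After OGD, 8 of the 10 genes were higher than in control and 2 were lower, and the FPKM of the 2 groups did not overlap for any of them. All 10, Id1 included, passed an adjusted p of 0.05 in edgeR's quasi-likelihood fit, adjusted by Benjamini-Hochberg over all tested genes. Of all 13693 tested genes, 73.1% passed in this comparison, 36.3% higher and 36.8% lower. The FPKM of the groups did not overlap for 75.3%, 40.7% higher and 34.6% lower. OGD changed most of the genes measured, so that passing the test or not overlapping was the common case. The median log2 change of the 10 was 2.30, beside 0.02 over all tested genes. All 10 passed the filter on low counts, but Smad6 and Smad9, with 5 to 21 reads in each control library, met it only through the groups where they were high. They had to differ to be tested, so no p is given for them here and the counts of passing genes, which include them, are a description.

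Id3 (ENSRNOG00000026124), the member with the largest fold in FPKM, had 23.7, 27.3 and 26.5 FPKM in the controls and 301, 281 and 246 FPKM after OGD. All OGD libraries thus lay far above all controls. On the log2 scale the change was 3.33 ± 0.13 (± SE, adjusted p = 5.08e-10 by edgeR), and only 28 tested genes had a larger estimate. Id1 (ENSRNOG00000021750), the classic BMP target that guided the choice of these genes, had 22, 24.9 and 22.3 FPKM in controls and 145, 120 and 129 FPKM after OGD. Its log2 change of 2.43 ± 0.09 is given as a description, since it uses the same OGD libraries in which Id1 was seen higher than with Wnt3a plus Rspondin 1.

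Id2 (ENSRNOG00000007237), which is widely expressed in neurons as well as in precursors, was the most abundant Id gene in controls, at 62.7, 62.1 and 63.8 FPKM, and had 158, 128 and 118 FPKM after OGD. Its groups did not overlap, and the OGD libraries were more spread than the controls. The log2 change was 1.01 ± 0.13 (edgeR adjusted p = 8.39e-06), the smallest among the 8 genes that were higher. Id4 (ENSRNOG00000016099), a member known from neural precursors, had 6.33, 5.79 and 6.43 FPKM in controls and 22.4, 21.6 and 16.8 FPKM after OGD. It rose by 1.62 ± 0.12 on the log2 scale (edgeR adjusted p = 8.05e-08).

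The 4 Id genes together had 115, 120 and 119 FPKM in controls and 626.5, 551 and 509 FPKM after OGD. Their order changed with the total. In controls Id2 made up 51.7% to 54.7% of the sum and Id3 20.7% to 22.7%, whereas after OGD Id3 made up 48% to 51% and Id2 23.1% to 25.2%. Id1 had 18.7% to 20.7% in controls and 21.9% to 25.4% after OGD, and Id4 had 3.29% to 5.52% over those 6 libraries. Among all tested genes, mean Id3 FPKM stood at percentile 72.9 in controls and 98 after OGD, and mean Id1 FPKM at 70.2 and 95.3.

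**Figure D1:**
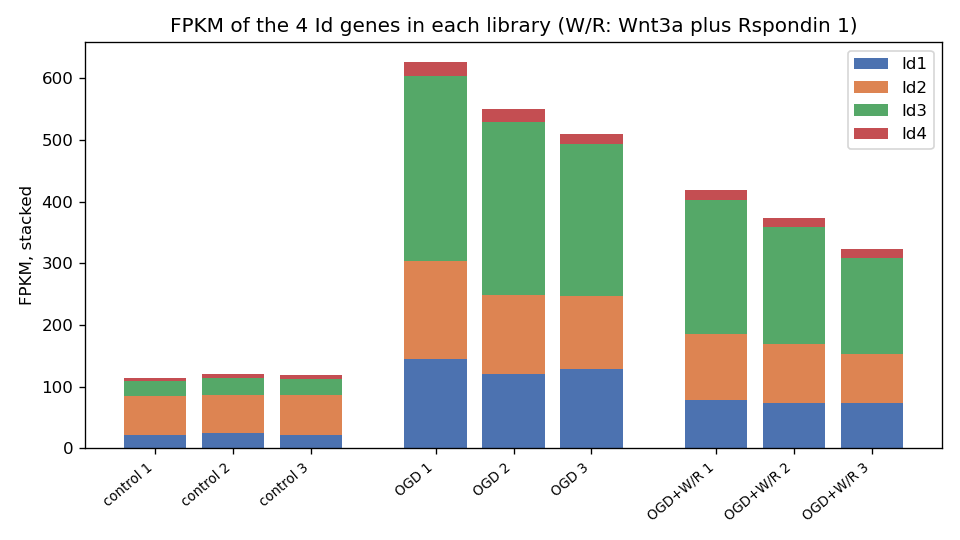
Stacked bars give the FPKM of Id1, Id2, Id3 and Id4 in each of the 9 libraries, 3 per group; W/R stands for Wnt3a plus Rspondin 1. The sum is 115 to 120 FPKM in controls, 509 to 626.5 after OGD and 323 to 419 with Wnt3a plus Rspondin 1, and Id3 takes the place of Id2 as the largest part outside the controls.

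Among the SMAD genes, Smad6 (ENSRNOG00000009173) encodes an inhibitory SMAD that blocks BMP signalling, and was barely detected in controls, with 7, 5 and 12 reads (0.25, 0.23 and 0.35 FPKM). After OGD it had 40, 40 and 32 reads (2.04, 1.31 and 1.48 FPKM). The groups were apart although the counts were small, and the log2 change was 2.38 ± 0.32. Smad9 (ENSRNOG00000058416), a receptor-activated SMAD of the BMP branch, had 0.32, 0.79 and 0.36 FPKM in controls and 3, 2.56 and 1.37 FPKM after OGD. Its log2 change was 2.23 ± 0.37, with OGD replicate 3 well below the other 2 OGD libraries.

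Smad7 (ENSRNOG00000018359), the inhibitory SMAD that blocks both the TGF-beta and the BMP branch, went the other way, from 2.79, 2.55 and 2.71 FPKM in controls to 2.1, 2.09 and 1.98 FPKM after OGD. The groups did not overlap, and Smad7 fell by 0.47 on the log2 scale (SE 0.12, edgeR adjusted p = 0.00265). Of the 10 genes this was the smallest change.

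Bambi (ENSRNOG00000016066) encodes a receptor-like membrane protein without a kinase domain that dampens BMP and TGF-beta signals. It had 3.22, 2.97 and 3.24 FPKM in controls and 22.7, 12.8 and 21.1 FPKM after OGD, where replicate 2 was the low library. It rose by 2.48 ± 0.22 (edgeR adjusted p = 4.38e-07). Atoh8 (ENSRNOG00000010716), a basic helix-loop-helix factor, rose from 0.27, 0.51 and 0.32 FPKM (13, 19 and 19 reads) to 4.6, 3.35 and 3.45 FPKM, a log2 change of 3.31 ± 0.24 (edgeR adjusted p = 4.28e-08). Only 31 tested genes had a larger estimate than Atoh8.

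Grem1 (ENSRNOG00000026053), which encodes the secreted BMP antagonist gremlin 1, was the member that fell most. It had 147, 130 and 202 reads (1.92, 2.19 and 2.12 FPKM) in controls and 8, 24 and 18 reads (0.15, 0.28 and 0.3 FPKM) after OGD. Grem1 fell by 3.14 on the log2 scale (SE 0.23, edgeR adjusted p = 5.79e-08). Every OGD library was thus below every control by a wide margin.

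**Figure D2:**
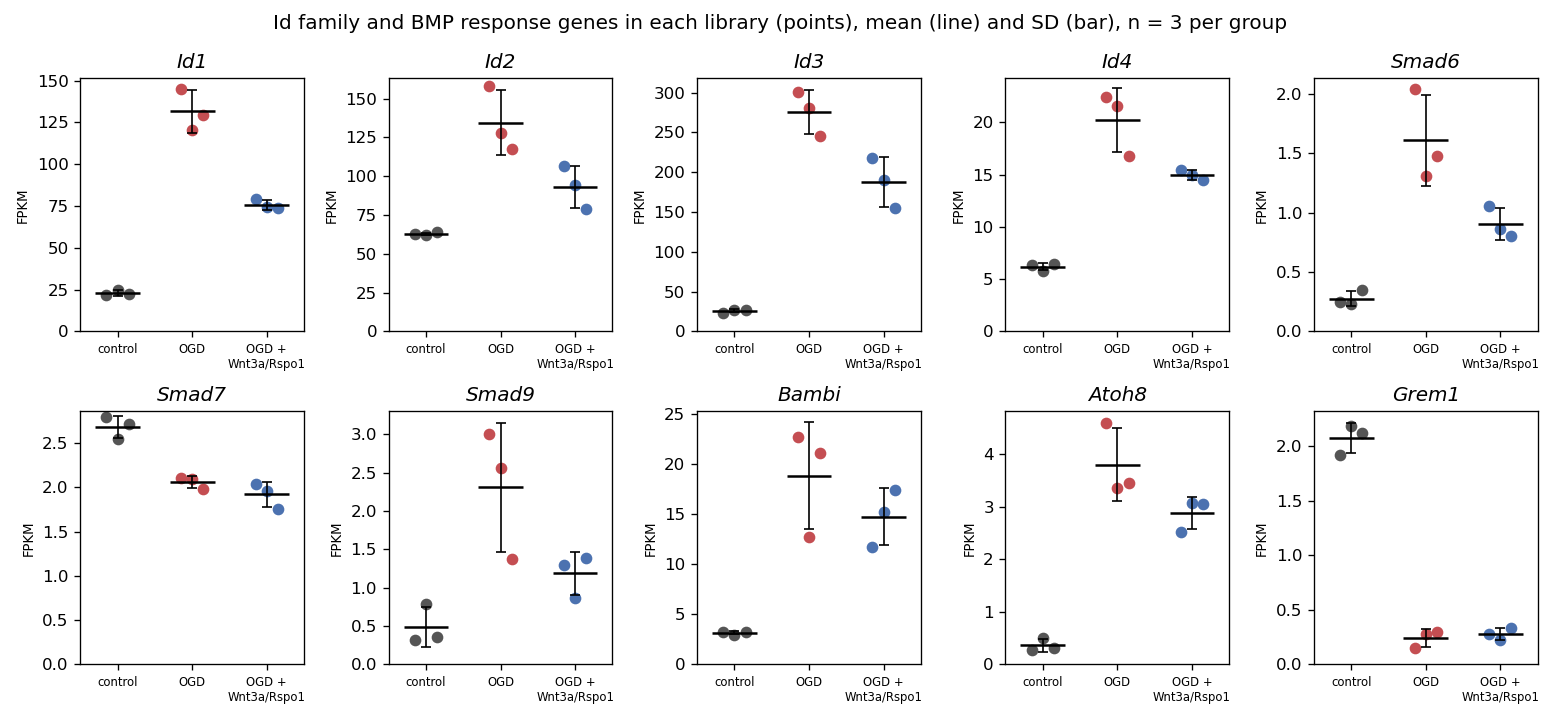
FPKM of each of the 10 genes (1 panel each, linear axis from 0) in the control, OGD and OGD with Wnt3a plus Rspondin 1 libraries; points are libraries, lines are means and bars are SD, n = 3 per group. In 8 panels the OGD points lie above the controls, in the panels of Smad7 and Grem1 below them, and for Id1 to Id4, Smad6 and Atoh8 all points with Wnt3a plus Rspondin 1 lie between the other 2 groups.

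These changes came beside a change in the makeup of the RNA. Of 12 neuron markers, all 12 fell after OGD, and their summed level was 3006 to 3149 FPKM in controls and 517.5 to 696 FPKM after OGD. Of 9 tested astrocyte markers, 8 rose and none fell, and the sum went from 2207 to 2387 FPKM in controls to 5918 to 6554 FPKM after OGD. All 6 tested markers of neural progenitors, several of which astrocytes also express, rose (sum 1020 to 1153 against 3998 to 4565 FPKM), as did all 7 tested microglia markers (3.63 to 5.8 against 22.3 to 24.4 FPKM). Of 6 tested mural and fibroblast markers, 3 rose and 2 fell, and the sum, which is mostly Tagln, was 92.2 to 115 FPKM in controls and 670 to 883 FPKM after OGD; Lum fell and Rgs5 was at or below 0.09 FPKM in these libraries. Of 8 oligodendrocyte lineage markers, 4 rose and 3 fell, with a sum of 317 to 396 against 849 to 889 FPKM. Of 4 tested endothelial markers 2 rose and 2 fell, with a sum of 30.6 to 35 against 15.3 to 17.2 FPKM, nearly all of it Ramp2, and 1 tested marker of ependyma and choroid plexus rose. The microglia markers Csf1r, Cx3cr1, Aif1 and Tyrobp met the filter on low counts only through the groups where they were high. The same holds for the ependymal marker Folr1, the endothelial marker Tek and the mural marker Acta2, while Dcn, Lum and Esam met it only through the controls. These markers had to differ to be tested, so the counts of markers that rose or fell are a description. The part of these marker shifts in the Id and BMP genes was not tested. In bulk RNA, more cells of a type and more RNA per cell cannot be told apart.

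Other genes of the pathway, taken from 6 lists of 56 genes, moved both ways after OGD. Of 42 that were tested, 19 were higher and 14 lower, which is 78.6% beside the 73.1% of all genes, and their median log2 change was 0.20. Among the ligands, Bmp4 had 8.91, 11.2 and 10.4 FPKM in controls and 49.8, 50 and 49.3 FPKM after OGD, and rose by 2.21 ± 0.09 (edgeR adjusted p = 5.08e-10). It was the most abundant BMP gene in each of the 9 libraries. Bmp6 rose by 2.10 ± 0.17, to 9.03 FPKM from 1.97, while Bmp2 and Bmp3, both at or below 1.06 FPKM in every library, fell by 2.44 (SE 0.40) and 1.46 (SE 0.29). Bmp7 had a change of -0.28 (adjusted p = 0.222). Of the 12 ligand genes 5 were tested, with 2 higher and 2 lower.

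The receptor genes moved both ways. Both BMP type I receptor genes rose, Bmpr1a by 1.65 ± 0.09 (from 15.7, 18.5 and 18.8 FPKM to 51.5, 64.9 and 60.4) and Bmpr1b by 1.84 ± 0.12. Acvr1, another type I receptor gene, fell by 1.23 (SE 0.10), the type II receptor gene Bmpr2 by 0.72, the activin type II receptor gene Acvr2a by 0.92, and the co-receptor gene Rgmb by 1.52 (SE 0.12), while the co-receptor gene Rgma, at 101 to 165 FPKM over control and OGD libraries, rose by 0.29. In all, 3 of 8 tested genes were higher and 4 lower. Among the extracellular antagonists 5 of 10 were higher and 4 lower. The chordin gene Chrd fell by 1.15 (SE 0.16), and the follistatin gene Fst by 1.42 (SE 0.28), from 4.18, 3.45 and 3.46 FPKM to 1.09, 1.72 and 1.51 FPKM. Nbl1, of the same antagonist family as Grem1, rose by 1.32 ± 0.09, and Chrdl1, which encodes a chordin-like antagonist, by 1.58 ± 0.16.

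Inside the cell, 3 of 9 genes for SMADs and their regulators were higher and 3 lower. Smad5, a receptor SMAD of the BMP branch, rose by 0.83 ± 0.08 and Smad4, the common partner, by 0.65. Smad1, the other BMP SMAD of that list, had a change of 0.01 (adjusted p = 0.895). The ubiquitin ligase gene Smurf1 fell by 0.74 (SE 0.08), Smad2 of the TGF-beta branch by 0.61 (SE 0.08) and the corepressor gene Skil by 1.00 (SE 0.14). Of 7 tested genes on a list of further BMP targets, 4 rose and 1 fell: Hey1 rose by 1.91 ± 0.13, Junb by 0.85 ± 0.13 and Tob1 by 0.38 ± 0.09, whereas Runx2, at or below 0.26 FPKM throughout, fell by 2.28 (SE 0.37). Runx2, Bmp2 and the antagonist gene Fstl3 met the filter on low counts only through the controls, and the target gene Msx1 only through the OGD groups. They had to differ to be tested, so the counts against control that include them are a description.

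Of the 3 genes for E proteins, the partners that Id proteins bind, 2 passed, a share close to the 73.1% of all tested genes. Tcf12 rose by 1.16 ± 0.08, from 14.4, 14.9 and 14.3 FPKM to 35.8, 36.3 and 33.9, and Tcf3 by 0.82 ± 0.12, while Tcf4 had a change of -0.03 (adjusted p = 0.808) at 54.6 to 57.7 FPKM in controls and 52.9 to 65 FPKM after OGD. Of 8 tested neural basic helix-loop-helix genes 2 rose, Olig1 and Olig2, and 5 fell, among them Neurod1 by 2.84 (SE 0.22). Hes5, also a fall, had 21.8, 22.6 and 20 FPKM in controls and 5.79, 6.68 and 7.08 FPKM after OGD. Of 7 tested genes on a list for TGF-beta, 2 rose, the matrix protein gene Tgfbi and the ligand gene Tgfb2, and 2 fell, Pmepa1 and Ccn2.

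**Figure D3:**
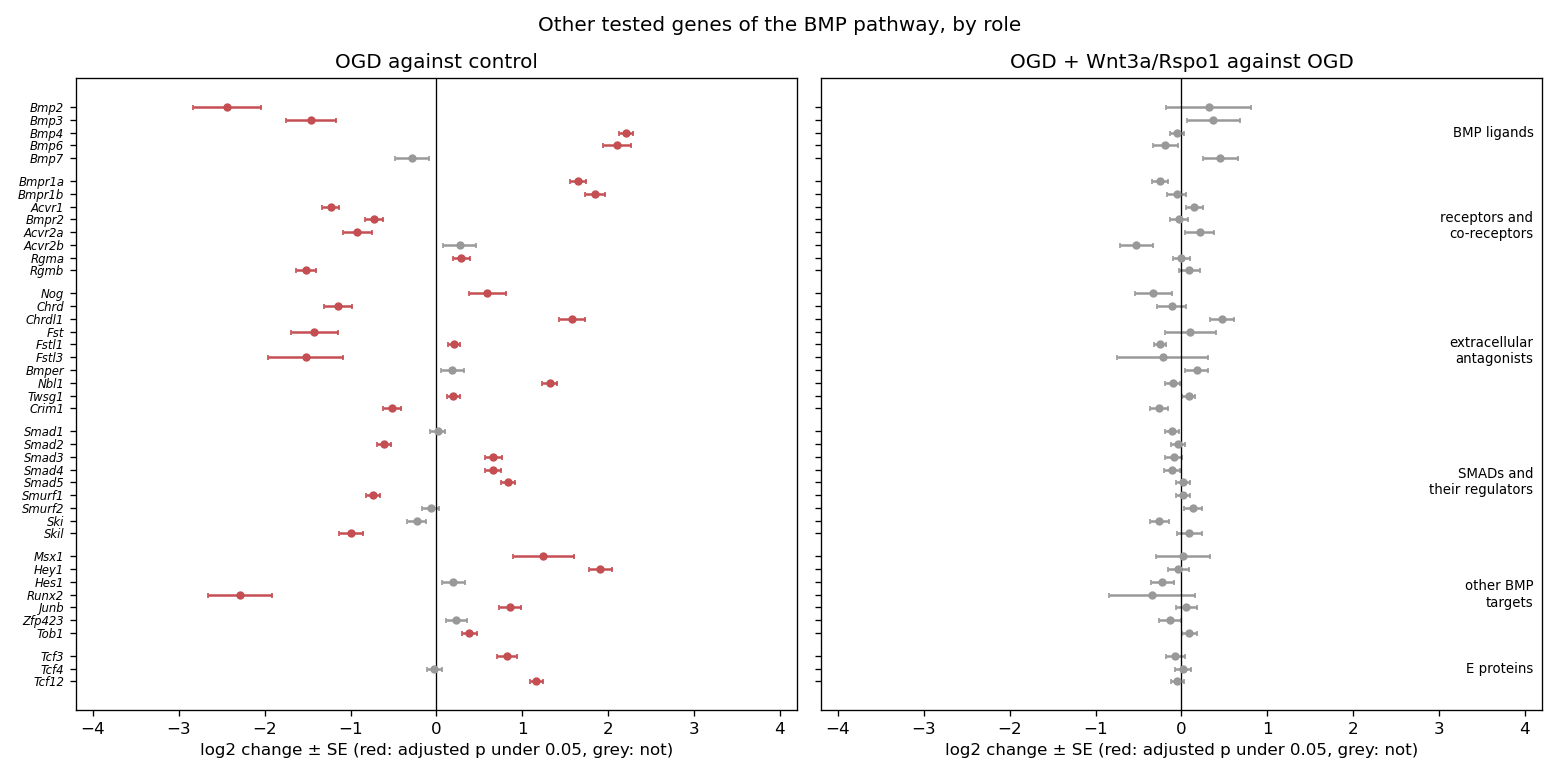
Log2 changes with SE for the 42 tested pathway genes that are not among the 10, by role, after OGD against control (left) and with Wnt3a plus Rspondin 1 against OGD alone (right); red points passed an adjusted p of 0.05 and grey ones did not. On the left 33 points are red and they lie on both sides of 0, and on the right none is red and all lie between -0.53 and 0.47.

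In OGD cultures given Wnt3a plus Rspondin 1, 9 of the 10 genes had a lower estimate than with OGD alone. This comparison chose the genes, so its values are a description and carry no test. Id1 had 79.2, 74.4 and 73.6 FPKM with the proteins, against 145, 120 and 129 FPKM with OGD alone. All 3 libraries lay below the OGD libraries, the log2 change was -0.82 ± 0.09, and Id1 was the only 1 of the 10 past an adjusted p of 0.05 by edgeR, where 0.197% of all tested genes passed, 0.0219% lower and 0.175% higher. DESeq2 called 4 of the 10, Id1 to Id4, and 0.76% of all genes it tested. Nothing is read from these counts, since the comparison chose the genes.

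The other Id genes had lower values as well. Id3 had 218, 191 and 155 FPKM against 301, 281 and 246, a change of -0.57 ± 0.12. Id2 had 106, 94.2 and 79.2 FPKM against 158, 128 and 118, a change of -0.55 ± 0.12. Id4 had 15.4, 14.9 and 14.5 FPKM against 22.4, 21.6 and 16.8, a change of -0.46 ± 0.12. In each case the groups did not overlap, and for all 4 genes the libraries with the proteins lay above every control. The sum of the 4 Id genes was 419, 374 and 323 FPKM, and its makeup stayed near that after OGD alone, with Id3 at 48.2% to 52%, Id2 at 24.5% to 25.4% and Id1 at 18.9% to 22.8%.

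Smad6, with 29, 20 and 18 reads (1.06, 0.86 and 0.8 FPKM), was also wholly below its OGD libraries, with a change of -0.83 ± 0.27. Smad9 had 1.3, 0.87 and 1.39 FPKM against 3, 2.56 and 1.37, a change of -0.98 ± 0.33, and its groups overlapped through OGD replicate 3. Atoh8 had 2.53, 3.07 and 3.06 FPKM against 4.6, 3.35 and 3.45, a change of -0.41 ± 0.19 without overlap. Bambi had 11.7, 15.2 and 17.4 FPKM against 22.7, 12.8 and 21.1, a change of -0.37 ± 0.20 with overlap. Without OGD replicate 1, the library that stood apart, the changes were -0.73 for Id1, -0.41 for Id2, -0.50 for Id3, -0.38 for Id4, -0.62 for Smad6, -0.76 for Smad9, -0.25 for Atoh8 and -0.20 for Bambi. All 8 were thus nearer to 0 and still negative. The estimate for Bambi ranged from -0.59 to -0.20 when 1 library was left out, being -0.59 without OGD replicate 2.

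The genes that were lower after OGD than in control showed little difference here. Smad7 had 2.04, 1.96 and 1.76 FPKM, a change of -0.12 ± 0.12 from OGD alone. Grem1 had 21, 14 and 21 reads (0.28, 0.22 and 0.33 FPKM), a change of 0.13 ± 0.28, whose sign depends on single libraries. Over the 10 genes the FPKM did not overlap for 6, all lower, where 9.73% of tested genes did not overlap, 3.87% lower and 5.86% higher, and the median change was -0.51. Leaving out Id1, 8 of 9 estimates were negative, with a median of -0.46, while 49.6% of all tested genes had a negative estimate and their median change was 0.00. These 9 genes share their libraries with Id1 and were chosen with earlier results of these data known. The counts are therefore a description, and nothing is read from them.

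**Figure D4:**
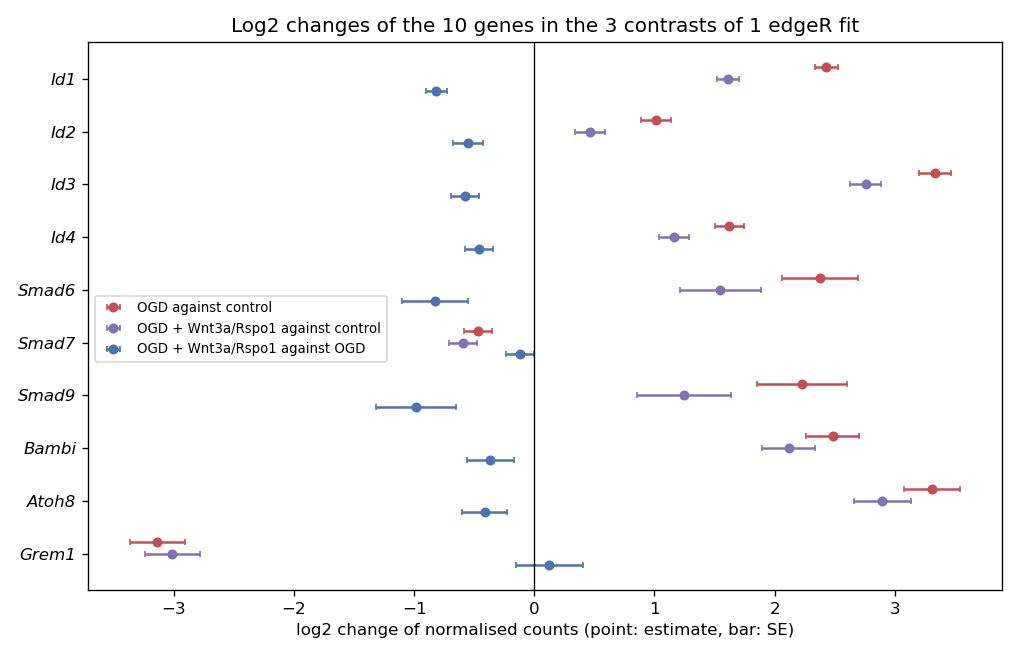
Log2 change (point) and SE (bar) of the 10 genes for OGD against control, OGD with Wnt3a plus Rspondin 1 against control, and the latter against OGD alone, all from 1 edgeR fit of the 9 libraries. The contrasts share libraries and so are not independent; Id3 and Atoh8 have the largest rises, at 3.33 and 3.31, Grem1 the largest fall, at -3.14, and Id1 stands at -0.82 in the contrast of the proteins against OGD alone.

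The ligands, receptors and SMADs that lie before the Id genes in the pathway did not pass in this comparison. Of the 42 other tested pathway genes none passed by edgeR, and 7 had an unadjusted p under 0.05 by edgeR. DESeq2 gave an adjusted p to 39 of the pathway genes, and none of these passed. Bmp4 stayed at 49.7, 47.7 and 48.3 FPKM, a change of -0.05 ± 0.08, and Bmp6 had a change of -0.19 ± 0.15. Bmpr1a had 52.3, 48.5 and 50.1 FPKM, a change of -0.25 ± 0.09 (adjusted p = 0.651), and Bmpr1b a change of -0.06 ± 0.11. Smad1, Smad5 and Smad4 had changes of -0.11 ± 0.08, 0.02 ± 0.08 and -0.11 ± 0.09. The largest estimates among the 42 were those of Acvr2b, an activin type II receptor gene (-0.53 ± 0.19, adjusted p = 0.649), and Chrdl1 (0.47 ± 0.14, adjusted p = 0.442). A p that misses the threshold does not show that these genes were the same in both groups.

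Among the E protein genes the changes were -0.07 ± 0.11 for Tcf3, 0.02 ± 0.09 for Tcf4 and -0.05 ± 0.08 for Tcf12. None of 8 neural basic helix-loop-helix genes passed by edgeR, with 1 at an unadjusted p under 0.05, Hes5, which had 4.57, 2.18 and 2.46 FPKM and a change of -1.08 ± 0.24 (adjusted p = 0.121 by edgeR; DESeq2 called it). None of 7 genes on the TGF-beta list passed by edgeR or DESeq2, with 1 at an unadjusted p under 0.05, Tgfb2 (-0.33 ± 0.09). Astrocyte markers summed to 5512 to 5831 FPKM, just below the 5918 to 6554 FPKM of OGD alone, with a median log2 change of -0.06. Most of each sum was Gfap, at 3153, 3001 and 2796 FPKM against 3787, 3404 and 3303 with OGD alone. Its change was -0.25 ± 0.09 (edgeR adjusted p = 0.592). Of 9 astrocyte markers, 3 had an unadjusted p under 0.05 by edgeR. Only 1 passed, the gap junction gene Gja1, which rose by 0.38 ± 0.06 (edgeR adjusted p = 0.0404). Progenitor markers summed to 4019 to 4523 FPKM and mural and fibroblast markers to 638 to 758 FPKM, ranges that overlap those after OGD alone, and none of these 2 lists passed by edgeR or DESeq2 or had an unadjusted p under 0.05. Neuron, microglia, oligodendrocyte lineage, endothelial and ependymal markers also had none that passed by either tool; 2 of the oligodendrocyte lineage had an unadjusted p under 0.05 and none of the others. The part of these levels in the Id values was not tested.

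Set against untreated control, cultures with OGD and both proteins kept the same signs, with 8 of 10 genes higher and 2 lower by edgeR, where 72.6% of tested genes passed, 36.6% higher and 36% lower. The FPKM of none of the 10 overlapped, as for 79.1% of tested genes, 44.4% higher and 34.7% lower. This comparison shares its controls with that of OGD alone, and the values of each stand side by side. Id3 had a log2 change of 2.76 ± 0.13 with the proteins and 3.33 ± 0.13 without, Id1 1.61 ± 0.09 and 2.43 ± 0.09, Id4 1.16 ± 0.12 and 1.62 ± 0.12, and Id2 0.46 ± 0.13 and 1.01 ± 0.13. For Atoh8 the values were 2.90 ± 0.24 and 3.31 ± 0.24, for Bambi 2.12 ± 0.22 and 2.48 ± 0.22, for Smad6 1.55 ± 0.33 and 2.38 ± 0.32, and for Smad9 1.24 ± 0.39 and 2.23 ± 0.37. Smad7 stood at -0.59 ± 0.12 and -0.47 ± 0.12, and Grem1 at -3.01 ± 0.23 and -3.14 ± 0.23. All 8 genes that were higher than control had a smaller estimate with the proteins. In 1 fit this restates their negative changes against OGD alone, the comparison that chose the genes, and adds no further result. The Smad9 estimate was 1.03 without control replicate 1 and 1.07 without control replicate 3. Smad6 and Smad9 had to differ from control to be tested, so no p is given for them. The counts by edgeR, which include these genes, are a description.

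Of the other pathway genes, 18 of 42 were higher and 15 lower with the proteins than in control by edgeR. The calls were not the same in both OGD groups. Nog, which encodes the BMP antagonist noggin, and Fstl1 passed after OGD alone (0.59 ± 0.22 and 0.21 ± 0.07) and not with the proteins (0.27 ± 0.22 and -0.04 ± 0.07). Bmper and the corepressor gene Ski passed with the proteins (0.36 ± 0.14 and -0.49 ± 0.11) and not after OGD alone (0.19 ± 0.14 and -0.23 ± 0.11). None of these 4 passed in the comparison of the proteins with OGD alone, where Fstl1 and Ski had an unadjusted p under 0.05, so a difference between the OGD groups was not shown. Bmp4 stood at 2.15 ± 0.09 and Bmp6 at 1.92 ± 0.17, Bmp2 at -2.13 ± 0.38 and Bmp3 at -1.09 ± 0.28. The receptor genes Bmpr1a and Bmpr1b stood at 1.40 ± 0.09 and 1.79 ± 0.12, and Rgmb and Acvr1 at -1.43 ± 0.12 and -1.08 ± 0.10. Among antagonists, Chrd stood at -1.26 ± 0.16, Crim1 at -0.77 ± 0.10, Nbl1 at 1.22 ± 0.09 and Chrdl1 at 2.05 ± 0.16. For these antagonists, as for Grem1, the direction was that seen after OGD alone, where Crim1 fell by 0.51. Smad5 stood at 0.85 ± 0.08, Smurf1 at -0.72 ± 0.08, Smad2 at -0.65 ± 0.08 and Skil at -0.90 ± 0.14. Of the further targets, Hey1 stood at 1.87 ± 0.13, Junb at 0.91 ± 0.13, Tob1 at 0.48 ± 0.09 and Runx2 at -2.62 ± 0.39, and of the E protein genes Tcf12 at 1.11 ± 0.08 and Tcf3 at 0.75 ± 0.11. Marker lists were near their state after OGD alone, with 12 of 12 neuron markers lower than in control. Higher were 8 of 9 astrocyte, 6 of 6 progenitor and 7 of 7 microglia markers. The microglia count includes markers that had to differ to be tested. The part of the marker lists in the Id values was not tested.

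By level per length, the order in controls ran Id2, Id3, Id1, Id4, Bambi, Smad7, Grem1, Smad9, Atoh8 and Smad6, from 62.9 down to 0.277 FPKM in the means. Id3 and Id1 (25.8 ± 1.85 and 23.0 ± 1.60, mean ± SD, n = 3) were neighbours whose libraries overlapped, and the same holds for Smad9, Atoh8 and Smad6. After OGD the order ran Id3, Id2, Id1, Id4, Bambi, Atoh8, Smad9, Smad7, Smad6 and Grem1, from 276 to 0.243 FPKM. There Id2 and Id1 (135 ± 21.1 and 132 ± 12.6) and Id4 and Bambi (20.3 ± 3.07 and 18.9 ± 5.36) did not differ beyond their spread, nor did Smad9, Smad7 and Smad6. With Wnt3a plus Rspondin 1 the first 6 kept that order, with Id2 and Id1 at 93.2 ± 13.6 and 75.7 ± 3.06 FPKM, followed by Smad7, Smad9, Smad6 and Grem1. The libraries of Id2 and Id1, of Id4 and Bambi, and of Smad9 and Smad6 overlapped there.

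The genes whose log2 CPM followed the Id genes most closely over the 9 libraries were picked by Pearson's r among 10088 genes, as a description in which the controls, which stand apart, weigh heavily. For Id1 they were Slc7a8, a transporter of neutral amino acids (r = 0.9964), Slc6a8, the creatine transporter (0.9927), and Ilvbl (0.9911). Their log2 changes were 1.25, 0.90 and 0.95 after OGD and -0.39, -0.29 and -0.25 with the proteins against OGD alone, smaller than those of Id1 in both. For Id2 they were the membrane-type metalloproteinase gene Mmp15 (0.9754), Psd2 (0.9671) and Dph1 (0.9602). For Id3 they were the myelin protein gene Pmp22 (0.9975), the collagen gene Col11a2 (0.997) and Lgi3 (0.9968), and for Id4 Slc6a8 (0.993), Appl2 (0.9925) and a gene listed as RGD1559896 (0.9915).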

How the data were processed

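Trizol RNA from the 9 samples was made into Illumina TruSeq libraries, per the labels' protocols. Bowtie 0.12.2 and builds of the mouse genome (mm8, mm9) are listed in the submitters' processing notes, although the gene identifiers are those of rat. The rat build, the counter and its use of strand are not given in the sources used here. Reads of overlapping genes may therefore be shared. Per the file headers, the authors deposited whole read counts per gene, not normalized, and FPKM per library. They also deposited log2 fold columns and p-value columns, which were not used for the results given here. Columns were matched to samples by name (WR1 to title RW1).

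The counts went into edgeR 4.0.16 (R 4.3.3): filterByExpr (minimum count 10, minimum total 15; 13693 genes kept), TMM scaling, and 1 robust quasi-likelihood fit of 9 libraries with 3 group means, Benjamini-Hochberg adjusted at 0.05. The scripts were first tested on simulated counts with known changes. Fitted changes use a prior count of 0.125. DESeq2 1.42.0 was an alternative. Every replicate pair differed by more than sampling noise (chi-square over its degrees of freedom, 3.6 to 28.4). Totals of 14285914 to 25048521 counts put 3 counts, the limit a count of 0 allows, at 0.12 to 0.21 CPM, for counting error only. The members, the 17 lists and the rule for named genes (all members; up to 4 passing genes per pathway list with the smallest adjusted p, plus others named after their values were seen; 3 genes most like each Id gene with a mean log2 CPM of at least 3) were chosen with earlier results of these data known. Some genes of these lists are not reported here and are left out of the list counts. Promoter sequences are from RefSeq, build GRCr8.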

Additional observations from a re-analysis of the deposited data

How the results depend on the processing

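The 10 calls for OGD against control kept their direction and their side of the threshold under RLE size factors, library totals, no filter on low counts, DESeq2, only the 6 libraries compared, the replicate block and each of the 9 fits that left out 1 library. For Smad6 and Smad9, which had to differ to be tested, and for Id1, which guided the choice through the same OGD libraries, this is a description. For OGD with Wnt3a plus Rspondin 1 against OGD, 27 genes passed; 99 passed with DESeq2, 15 with only the 6 libraries compared and 65 with the replicate block, and 12 to 49 when 1 library was left out: 49 without OGD replicate 1, 13 without OGD replicate 2, 12 without replicate 2 and 17 without replicate 3 of the group with the proteins. Of the 10 genes 1 passed, Id1, in all of these; with DESeq2 4 passed (Id1 to Id4, where 0.76% of genes passed), with the replicate block 3 (Id1, Id2 and Id3, where 0.475% passed), and 1 to 2 when a library was left out, Id4 being the second without OGD replicate 3. Since this comparison chose the 10 genes, nothing is read from how many of them passed. The replicate numbers were not taken as pairs: deviations of same-numbered libraries correlated at -0.0688 to 0.273, over 0.1 in 4 of 9 pairs. The Grem1 change in that comparison ran from -0.090 to 0.27 when 1 library was left out, and was negative without OGD replicate 1 (-0.090) and without replicate 3 of the group with the proteins (-0.021); it was not called in any fit. Library totals shifted the median log2 change of all genes by 0.11 for the group with the proteins against control. The cause of these differences was not tested. Depth limits Smad6, Smad9, Atoh8 and Grem1, which had at most 24 reads in each library of at least 1 group.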
